A study of Mus musculus with 3 samples.

Results

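Genes of the oligodendrocyte lineage, from the dividing precursor to the cell that begins to make myelin, were described in 3 mouse brain RNA libraries. The 9 genes were taken by symbol from the 17992 counted genes: Pdgfra, Cspg4, Olig1, Olig2, Sox10, Gpr17, Enpp6, Bcas1 and Myrf. All 9 were counted, and all 9 had a mean of at least 1 CPM, counts scaled to a common library total, over the 3 libraries, the minimum used for comparing genes.

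The libraries were made from brains of adult wild-type (WT) C57BL/6 mice, 1 library for each of the groups Sham, Vehicle and AGNHW. Vehicle is the group with middle cerebral artery occlusion, a stroke model in which a large forebrain artery is blocked. AGNHW is the group dosed at 3 mg/g/d with AGNHW, a preparation that the series' title sets in cerebral ischemia, although the labels do not repeat the occlusion for this group. The sources used here do not give the part of the brain taken, the time after surgery or the number of mice behind a library. The question for these genes is how the lineage stood in the operated control, in the occluded brain and in the treated brain. With no replicate, no difference below has a replicate check, no test of the conditions was possible, and "higher" and "lower" describe single libraries.

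Oligodendrocyte precursors divide in response to platelet-derived growth factor, which they sense through the receptor encoded by Pdgfra, and they carry the NG2 proteoglycan encoded by Cspg4. The factors Olig2, Olig1 and Sox10 hold the lineage at all stages. As a precursor commits to differentiation it passes through a phase with Gpr17, then with Bcas1 and Enpp6, and Myrf, a membrane-tethered transcription factor, switches on the genes of compact myelin. Precursors are spread through grey and white matter of the adult brain and are known to react to injury.

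Totals were 18286151 counts in Sham, 15718594 in Vehicle and 18184691 in AGNHW, and counts were scaled with TMM factors between 0.968 and 1.029. The Vehicle library stood apart by pituitary transcripts: the hormone genes Gh, Prl, Pomc and Cga took 0.362% of its counts, against 0.000317% in Sham and 0.000247% in AGNHW. Red blood cell genes were higher in it as well, with a summed level of 163 CPM against 52.8 and 65.1. Brain cell types were present in all libraries, with 10 neuronal markers at 6628 to 6955 CPM in sum, 10 astrocyte markers at 3727 to 3896 CPM and 10 microglial markers at 359 to 390 CPM. Such sums rest on the most abundant markers. By the size rule given below, 1 astrocyte marker was higher and 2 lower in Vehicle than in Sham, and 0 microglial markers were higher and 3 lower. Of all genes 8.66% were higher and 14.2% lower there. Of 10 markers of brainstem and monoamine neurons 7 were counted, at 22.7 CPM in sum in Sham, 46.3 in Vehicle and 36.9 in AGNHW. Of the 6 that could be compared, 5 were higher and 0 lower in Vehicle than in Sham, where 8.66% of all genes were higher. In AGNHW against Sham 2 were higher and 0 lower, where 3.32% of all genes were higher. The serotonin transporter gene Slc6a4, for one, had 1 count in Sham, 103 in Vehicle and 20 in AGNHW, so that AGNHW and Sham differed in such markers as well. The part of unequal tissue sampling in the results below was not tested. The ratios of AGNHW to Sham for Enpp6, Sox10, Gpr17 and Myrf were the same to 3 digits when the scaling left out the Vehicle library. TMM compares each library with 1 reference library, so this choice could hardly change them, and it does not bear on tissue sampling. In bulk RNA, fewer cells of a type and less RNA per cell cannot be told apart.

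A gene was counted as past the size rule when the ratio of its scaled CPM was at least 1.5 either way and its 95% counting interval excluded 1. Enpp6 was the only member past it, lower in both Vehicle and AGNHW than in Sham, and Pdgfra had the next lowest ratios to Sham without reaching it. Both Enpp6 calls depended on the form of the ratio: when a trend on transcript length and base composition over all genes was removed, no member was past the rule. The corrected ratio of Vehicle to Sham was then lowest for Olig1, at 0.712, and that of Pdgfra was 1.03. The 250 bases before the RefSeq start of these genes (build GRCm38.p6, plus strand) are shown because they belong to the members with the lowest uncorrected ratios to Sham. Capitals mark ACAAT or its reverse complement ATTGT, the core letters that SOX factors such as Sox10 recognise.
Enpp6, chr8:46986637-46986886: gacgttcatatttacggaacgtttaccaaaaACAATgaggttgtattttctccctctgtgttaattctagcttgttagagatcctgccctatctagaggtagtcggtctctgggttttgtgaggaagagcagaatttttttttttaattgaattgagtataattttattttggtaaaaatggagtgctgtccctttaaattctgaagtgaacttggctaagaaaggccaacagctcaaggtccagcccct
Pdgfra, chr5:75152001-75152250: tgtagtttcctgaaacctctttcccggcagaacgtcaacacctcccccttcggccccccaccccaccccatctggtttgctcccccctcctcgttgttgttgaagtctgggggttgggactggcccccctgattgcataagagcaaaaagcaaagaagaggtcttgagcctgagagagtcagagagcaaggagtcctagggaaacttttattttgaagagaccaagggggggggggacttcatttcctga
The Enpp6 window holds the letters 1 time, beginning 219 bases before the start, and the Pdgfra window holds none. Searched on both strands, 27.7% of 32851 windows of the same length held either form. The sequence table had 4 of the members, and the other two with an entry, Cspg4 and Olig2, held 1 match each. The search letters were chosen after the values were seen, and a match is a description of letters, not a bound site.

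The surface proteins of precursors were Pdgfra and Cspg4. Pdgfra, the PDGF receptor alpha, had 796 counts in Sham, 532 in Vehicle and 634 in AGNHW, or 42.3 CPM (39.4 to 45.3, exact Poisson interval), 35 CPM (32.1 to 38.1) and 34.7 CPM (32.1 to 37.5). The Sham library was highest, and its interval did not overlap those of the other two, which overlapped each other. The ratio of Vehicle to Sham was 0.827 (0.740 to 0.924) and that of AGNHW to Sham 0.821 (0.738 to 0.912), both short of the size rule. With the trend on length and base composition removed these were 1.03 (0.924 to 1.15) and 0.920 (0.828 to 1.02), and both intervals held 1. Cspg4 had 465, 402 and 477 counts in the order Sham, Vehicle, AGNHW, or 24.7, 26.4 and 26.1 CPM, and its 3 intervals overlapped. The ratio of Cspg4 was 1.07 (0.934 to 1.22) for Vehicle to Sham and 0.988 (0.864 to 1.13) for AGNHW to Vehicle. Set against each other as deposited, there were 0.584 Cspg4 counts per Pdgfra count in Sham (0.520 to 0.656), 0.756 in Vehicle (0.662 to 0.862) and 0.752 in AGNHW (0.667 to 0.849). The difference between Sham and Vehicle in these counts was not seen after correction, where the ratio of Vehicle to Sham was 1.02 (0.894 to 1.17) for Cspg4, next to 1.03 for Pdgfra.

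Both surface genes are also transcribed outside the lineage, Pdgfra in fibroblasts of the meninges and vessels and Cspg4 in pericytes. Of 9 fibroblast markers all were counted in every library, with a summed level of 87.3 CPM in Sham, 89.3 in Vehicle and 98.8 in AGNHW. Of 11 pericyte and smooth muscle markers all were counted, at 261, 279 and 298 CPM in sum. Both sums were lowest in Sham, but single markers ran both ways. Of the fibroblast markers, the transporter gene Slc6a13 was lowest in Sham at 12.4 CPM, against 19.7 in Vehicle and 20.3 in AGNHW. Col1a1, Col3a1, Lum and Dcn, genes of the extracellular matrix, were highest in Sham, as Pdgfra was before correction. Col1a1 had 14.2, 10.5 and 13.6 CPM and Col3a1 3.08, 1.58 and 2.14 CPM. Other genes of this list, Col1a2 (19.4, 21.2 and 21.6 CPM), Fbln1 (15.5, 17.7 and 18.2 CPM) and Igf2, were lowest in Sham. Slc47a1 was lowest in Vehicle. By the size rule 1 of the 9 was higher and 2 lower in Vehicle than in Sham, where 8.66% and 14.2% of all genes were. In AGNHW against Sham 2 were higher and 1 lower, where 3.32% and 5.47% of all genes were. Of the pericyte markers, Vtn was lowest in Sham (71.8, 95.6 and 105 CPM) and Rgs5 highest there (70.9, 54.3 and 61.7 CPM). The part of these cells in the levels of Pdgfra and Cspg4 was not tested.

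**Figure D1:**
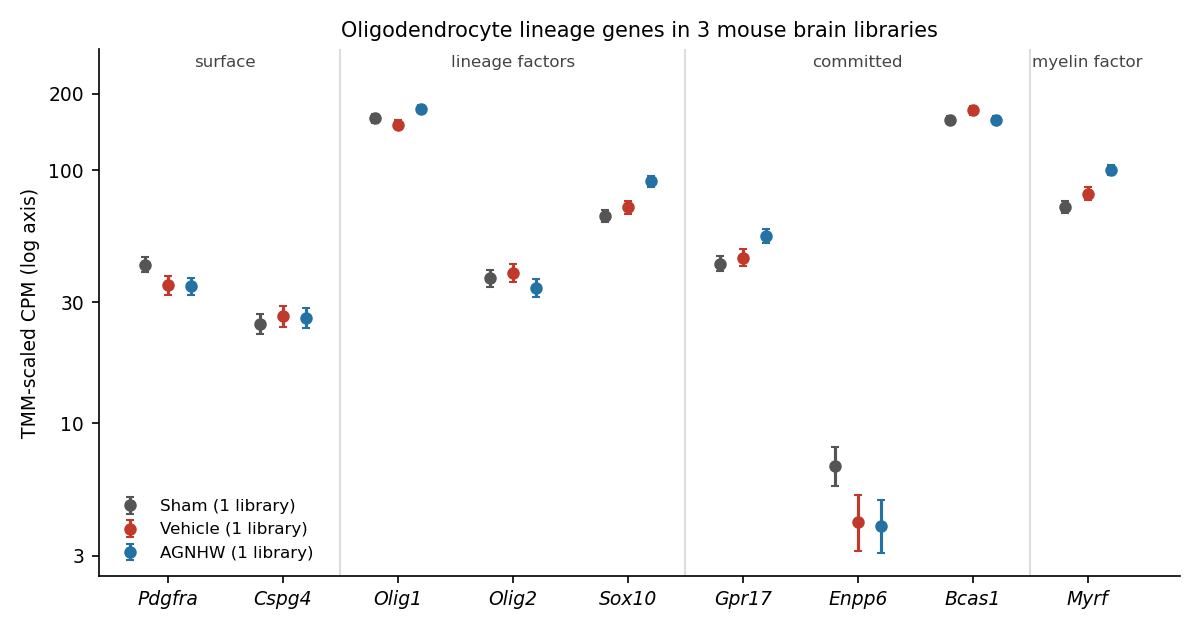
TMM-scaled CPM (log axis) of the 9 genes in the Sham, Vehicle and AGNHW libraries, 1 point per library with its exact 95% Poisson interval, grouped by role. Enpp6 is lowest at 3.94 to 6.75 CPM and highest in Sham, and Sox10, Gpr17 and Myrf are highest in AGNHW.

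The lineage transcription factors were Olig1, Olig2 and Sox10. Olig1 and Olig2 encode related basic helix-loop-helix proteins. Olig1 had 3011 counts in Sham, 2292 in Vehicle and 3195 in AGNHW, or 160.0, 151 and 175 CPM, so that Vehicle was lowest and AGNHW highest. The ratio of AGNHW to Vehicle was 1.16 (1.10 to 1.23) and that of Vehicle to Sham 0.942 (0.892 to 0.995). Olig2, the factor that sets up the lineage, had 703, 597 and 624 counts, or 37.4, 39.3 and 34.2 CPM, the opposite order to Olig1, and its 3 intervals overlapped. Its ratio of AGNHW to Vehicle was 0.870 (0.777 to 0.975). Per count of Olig2 there were 4.28 counts of Olig1 in Sham (3.94 to 4.66), 3.84 in Vehicle (3.51 to 4.21) and 5.12 in AGNHW (4.70 to 5.59), and the AGNHW interval lay above the other two. This pairing, like the other ratios between members, was chosen after the values were seen and does not depend on library scaling.

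Sox10, which works with the Olig factors and with Myrf, had 1240 counts in Sham, 1087 in Vehicle and 1648 in AGNHW. Its levels were 65.9 CPM (62.3 to 69.7), 71.5 CPM (67.3 to 75.8) and 90.2 CPM (85.9 to 94.7). The AGNHW interval did not overlap the others, and those of Sham and Vehicle did. The ratio was 1.26 (1.17 to 1.36) for AGNHW to Vehicle and 1.37 (1.27 to 1.48) for AGNHW to Sham, both under 1.5. Among all 15558 genes compared, 7.48% had a ratio of AGNHW to Sham at least as high. Sox10 also marks Schwann cells. Of 8 Schwann cell markers 6 were counted, at 95.1 to 116 CPM in sum, of which Sox10 itself was the largest part. The other 5 were at 1.18 to 18.8 CPM: Pmp22, Egr2 and Cdh19 were highest in Sham, Prx in Vehicle and Ncmap in AGNHW. Of the 6 markers, Sox10 included, 1 was higher and 0 lower by the size rule in AGNHW than in Vehicle. Of all genes 4.01% were higher and 2.56% lower there. In AGNHW against Sham 0 were higher and 2 lower, where 3.32% and 5.47% of all genes were. The part of Schwann cells in the level of Sox10 was not tested.

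Genes of the committed and premyelinating stages did not share a direction. Gpr17, a G protein-coupled receptor present for a short phase of differentiation, had 804 counts in Sham, 686 in Vehicle and 1000 in AGNHW, or 42.7, 45.1 and 54.8 CPM. Only the AGNHW library lay apart, with a ratio of 1.21 (1.10 to 1.34) to Vehicle and 1.28 (1.17 to 1.41) to Sham. Gpr17 lies on the opposite strand to Lims2 in the GENCODE M21 annotation and shares 188 of its 5195 exon bases with it. Lims2, which encodes an adaptor of focal adhesions, had 13, 13.5 and 16.8 CPM in the same order, with ratios of AGNHW to Vehicle of 1.25 (1.04 to 1.5) and to Sham of 1.29 (1.09 to 1.53). The strand setting of the counting is not given, so reads from the shared bases cannot be told apart.

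Enpp6 encodes a choline-specific phosphodiesterase of newly formed oligodendrocytes and was the least abundant member. It had 127 counts in Sham, 62 in Vehicle and 72 in AGNHW, or 6.75 CPM (5.63 to 8.03), 4.08 CPM (3.13 to 5.23) and 3.94 CPM (3.08 to 4.96). The Sham library was highest and its interval did not overlap the other two. Enpp6 was 1.66-fold lower in Vehicle than in Sham (1.21 to 2.28) and 1.71-fold lower in AGNHW than in Sham (1.27 to 2.32). With the trend on length and base composition removed the values were 1.19-fold (0.868 to 1.63) and 1.43-fold (1.06 to 1.94), and neither was past the rule. Between AGNHW and Vehicle the ratio was 0.967 (0.679 to 1.38), an interval too wide at this depth to exclude a moderate change either way. Bcas1, a marker of oligodendrocytes at the onset of myelination, differed from Enpp6, with 2981, 2615 and 2884 counts, or 158, 172 and 158 CPM. Its Vehicle library was highest, with a ratio to Sham of 1.09 (1.03 to 1.14), and its ratio of AGNHW to Sham was 0.997 (0.947 to 1.05). With the trend removed the ratio of Vehicle to Sham was 1.05 (0.994 to 1.10), an interval that held 1. The corrected intervals of Gpr17 and Enpp6 for Vehicle to Sham held 1 as well. Of the 3775 exon bases of Bcas1, 440 are shared with the antisense gene Bcas1os1 and 34 with Bcas1os2.

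Myrf had 1345 counts in Sham, 1228 in Vehicle and 1831 in AGNHW, or 71.5 CPM (67.7 to 75.4), 80.7 CPM (76.3 to 85.4) and 100.3 CPM (95.7 to 105). None of its 3 intervals overlapped, with Sham lowest and AGNHW highest. Before correction Myrf had the highest ratio of the members for Vehicle to Sham, 1.13 (1.04 to 1.22), and for AGNHW to Sham, 1.40 (1.31 to 1.51). After it the former was 1.05 (0.970 to 1.13), an interval that held 1. Of all genes compared, 6.59% had a ratio of AGNHW to Sham at least as high. Its ratio of AGNHW to Vehicle was 1.24 (1.15 to 1.34).

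Counts were also set per Pdgfra count within each library, which shows how other members stood to the precursor receptor without any scaling. Myrf had 1.69 counts per Pdgfra count in Sham (1.55 to 1.85), 2.31 in Vehicle (2.08 to 2.56) and 2.89 in AGNHW (2.64 to 3.17). Sox10 had 1.56 (1.42 to 1.70), 2.04 (1.84 to 2.27) and 2.60 (2.37 to 2.85) in the same order. Gpr17 had 1.01 (0.915 to 1.12), 1.29 (1.15 to 1.45) and 1.58 (1.43 to 1.75). For Myrf, Sox10 and Gpr17 the order was Sham, Vehicle, AGNHW, and for Myrf and Sox10 the 3 counting intervals did not overlap. The step from Sham to Vehicle was not seen in the corrected ratios, which for Vehicle to Sham were 1.05 for Myrf and 1.06 for Gpr17, next to 1.03 for Pdgfra, and 0.850 for Sox10, which turned. The step from Vehicle to AGNHW was seen in both forms, with corrected ratios of 1.27, 1.20 and 1.40 for Myrf, Gpr17 and Sox10, next to 0.890 for Pdgfra. In uncorrected counts Bcas1 differed, with 3.74 (3.46 to 4.05), 4.92 (4.48 to 5.41) and 4.55 (4.17 to 4.97), highest in Vehicle. Its Vehicle and AGNHW intervals overlapped, and its corrected ratio of Vehicle to Sham was 1.05, next to 1.03 for Pdgfra. Enpp6, a gene of the same stage, was not set per Pdgfra count and was lower against Sham than Pdgfra was. Its ratios to Sham were 0.604 in Vehicle and 0.584 in AGNHW, below those of Pdgfra, 0.827 and 0.821. The corrected ratios were 0.844 and 0.699, next to 1.03 and 0.920 for Pdgfra. The values per Pdgfra count share the same Pdgfra counts, so they are not independent of each other.

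**Figure D2:**
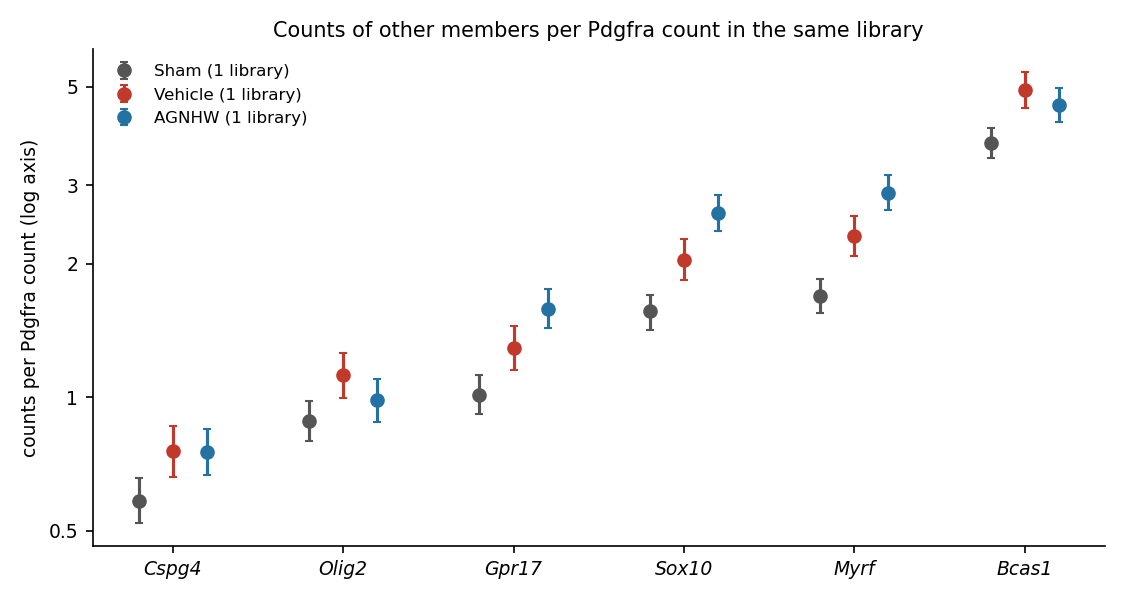
Counts of 6 members per Pdgfra count in the same library (log axis), with exact conditional binomial 95% intervals, 1 point per library. Enpp6, which was lower against Sham than Pdgfra was, and Olig1 are not shown. Myrf, Sox10 and Gpr17 step up from Sham to Vehicle to AGNHW, from 1.69 to 2.31 to 2.89 for Myrf. Bcas1 is highest in Vehicle, with an interval that overlaps that of AGNHW. These counts are not corrected for length and base composition. With that correction the Sham to Vehicle step is absent for Myrf, Gpr17 and Bcas1 (1.05, 1.06 and 1.05, next to 1.03 for Pdgfra). For Sox10 it is turned (0.850).

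Levels of different genes were compared as CPM per kilobase of the longest annotated transcript. In Sham the order from the highest was Olig1 at 74.0, Bcas1 at 53.7, Sox10 at 23.7, Olig2 at 14.8, Myrf at 12.6, Gpr17 at 8.22, Pdgfra at 6.19, Cspg4 at 3.04 and Enpp6 at 1.36 CPM per kilobase. No neighbours in that order had overlapping counting intervals in Sham. In Vehicle the order was the same, but the intervals of Olig2 (14.3 to 16.8) and Myrf (13.4 to 15.0) overlapped. In AGNHW these neighbours changed places, with Myrf at 17.7 (16.9 to 18.5) and Olig2 at 13.5 (12.5 to 14.6). These values depend on the transcript chosen, and the isoforms present are not known from counts per gene.

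Comparing Vehicle with Sham over all members, 0 of 9 were past the size rule as higher and 1, Enpp6, as lower, where 8.66% and 14.2% of all 15558 genes were. The median log2 ratio of the members was 0.08, against 0.01 over all genes compared, whose middle part ran from -0.37 to 0.32 (quartiles). Without the size limit, the intervals of Bcas1 and Myrf lay above 1 and those of Pdgfra, Olig1 and Enpp6 below it. These were 2 and 3 of 9, where 31.6% of all genes lay above and 30.7% below. After correction 0 lay above and 3 below, then Olig1, Olig2 and Sox10, where 26.4% and 21.5% of all genes did. Between AGNHW and Vehicle 0 of 9 members were past the rule in either direction, where 4.01% of all genes were higher and 2.56% lower. The median of the members was -0.01, against 0.00 over all genes. Intervals above 1 belonged to Olig1, Sox10, Gpr17 and Myrf, and intervals below 1 to Olig2 and Bcas1, 4 and 2 of 9, where 20.7% of all genes lay above and 22.0% below. Between AGNHW and Sham 0 of 9 were higher and 1, Enpp6, lower, where 3.32% and 5.47% of all genes were. The median of the members was 0.08, against 0.00 over all genes. Counts of 0 or 1 of 9 do not set the members apart from other genes, and the 3 comparisons share libraries in pairs.

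The ratios between these libraries moved with transcript length and base composition. A trend on both accounted for 34.6% of the spread (variance) in log2 ratios of Vehicle to Sham over all genes compared, 16.8% for AGNHW to Vehicle and 21.7% for AGNHW to Sham. Olig1 (2162 bases, 61.1% GC), Olig2 and Sox10 lay where the trend was upward in Vehicle, by 0.40, 0.34 and 0.35 on the log2 scale. Enpp6 and Pdgfra lay where it was downward, by -0.48 and -0.32.

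With the trend removed, Enpp6 had a ratio of Vehicle to Sham of 0.844 (0.612 to 1.15) and of AGNHW to Sham of 0.699 (0.516 to 0.940), so that it was no longer past the size rule. No member was then past it in any comparison, where 5.14% of genes were higher and 6.50% lower in Vehicle than in Sham, 2.84% and 1.85% in AGNHW than in Vehicle, and 2.79% and 3.12% in AGNHW than in Sham. The ratio of Pdgfra for Vehicle to Sham became 1.03 (0.924 to 1.15). Olig1, Olig2 and Sox10 turned to or stayed at ratios under 1 in Vehicle against Sham, at 0.712 (0.674 to 0.752), 0.833 (0.746 to 0.930) and 0.850 (0.783 to 0.923).

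Of the members that were higher in AGNHW, Myrf and Gpr17 changed little with the correction, while Sox10 and Olig1 moved outside their counting intervals in both comparisons. The corrected ratio of AGNHW to Vehicle was 1.40 (1.30 to 1.51) for Sox10, 1.27 (1.18 to 1.37) for Myrf and 1.20 (1.09 to 1.32) for Gpr17. Against Sham the corrected ratios were 1.19 (1.10 to 1.28) for Sox10, 1.33 (1.24 to 1.43) for Myrf and 1.28 (1.16 to 1.40) for Gpr17. Sox10, Myrf and Gpr17 had intervals above 1 in AGNHW against either of the other libraries, with and without the correction, and none reached the size limit. Such intervals were common over all genes, at 20.7% against Vehicle and 23.7% against Sham, or 13.7% and 20.1% after correction. For Olig1 the corrected ratio of AGNHW to Vehicle was 1.32 (1.25 to 1.40), against 1.16 (1.10 to 1.23) before. Its corrected ratio of AGNHW to Sham was 0.941 (0.895 to 0.989), against 1.09 (1.04 to 1.15) before.

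**Figure D3:**
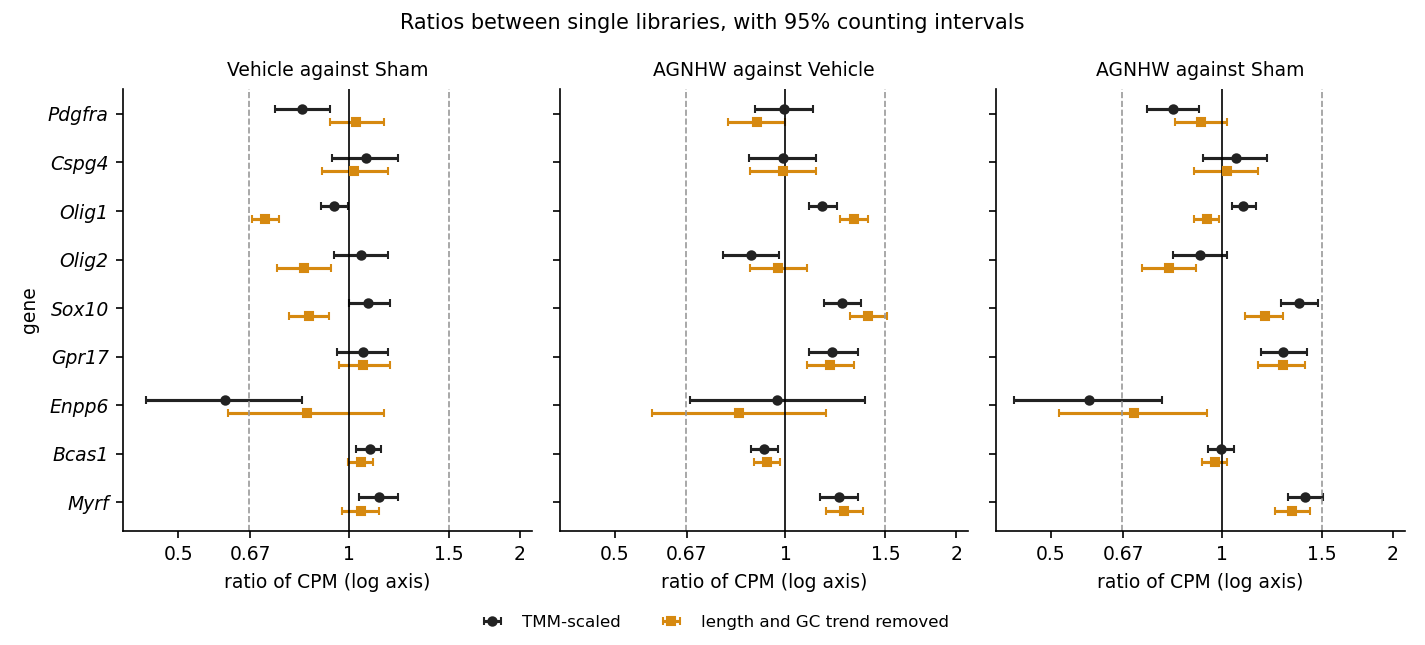
Ratio of CPM (log axis) between pairs of libraries for the 9 genes with 95% counting intervals, scaled with TMM (circles) and with the trend on length and GC removed (squares). Dashed lines mark the 1.5-fold limit, which Enpp6 passes against Sham only before the correction, and Sox10, Gpr17 and Myrf lie above 1 in AGNHW in both forms.

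Other genes of the lineage came from 5 lists with 114 distinct symbols, of which 109 could be compared. The shares of all genes past the rule, to be set beside each list, were 8.66% higher and 14.2% lower in Vehicle than in Sham. They were 4.01% and 2.56% in AGNHW against Vehicle, and 3.32% and 5.47% in AGNHW against Sham. After correction they were 5.14% and 6.50%, 2.84% and 1.85%, and 2.79% and 3.12% in the same order. Of 20 other precursor genes, 0 were higher and 4 lower in Vehicle than in Sham, with a median log2 ratio of -0.04. The precursor protocadherin Pcdh15 was 2.31-fold lower (1.79 to 3.00), Luzp2 2.2-fold lower (1.97 to 2.45), the xylosyltransferase Xylt1 2.07-fold lower (1.84 to 2.34) and the receptor phosphatase Ptprz1 2.06-fold lower (1.87 to 2.27). Their longest transcripts had 4901 to 9104 bases. After correction 1 gene of the list was higher and 3 lower, Pcdh15 and Xylt1 among the lower ones at corrected log2 ratios of -0.60 and -0.76. In AGNHW against Vehicle only Luzp2 was past the rule, 1.53-fold higher (1.37 to 1.72), and 0 of the list were after correction. In AGNHW against Sham 0 were higher and 3 lower, or 0 and 1 after correction.

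Of 18 genes of newly formed oligodendrocytes, 0 were higher and 2 lower in Vehicle than in Sham, and 0 were past the rule in AGNHW against Vehicle or against Sham. The ion cotransporter Slc12a2 was 1.64-fold lower in Vehicle (1.43 to 1.88) and the GTPase Rras2 1.55-fold lower (1.24 to 1.94), and after correction neither was past the rule. Tcf7l2, a Wnt pathway factor of cells leaving the precursor stage, had ratios of 0.732 (0.632 to 0.848) for Vehicle to Sham and 1.23 (1.06 to 1.43) for AGNHW to Vehicle. Ust had a ratio of AGNHW to Vehicle of 1.26 (1.08 to 1.47) and Cnksr3 of 0.777 (0.594 to 1.01). Mycl had the highest ratio of AGNHW to Sham among the 3 named there, 1.38 (1.20 to 1.59), and a ratio of Vehicle to Sham of 1.35 (1.16 to 1.56).

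Of 24 lineage regulators, 1 was higher and 7 lower in Vehicle than in Sham, with a median of -0.41, or -0.05 and 0 higher and 3 lower after correction. Zeb2, a repressor needed for myelination, was 2.31-fold lower (2.05 to 2.61), Sox6, which holds precursors undifferentiated, 2.16-fold lower (1.76 to 2.65), and Prrx1 2.21-fold lower (1.53 to 3.24). Sox6 and Prrx1 were still past the rule after correction, and Zeb2 was not. In AGNHW against Vehicle, Zfp488, a co-factor of Olig2, was 1.56-fold higher (1.12 to 2.2), and the zinc finger gene Zfp536 had a ratio of 1.5 (1.26 to 1.78) that just missed the limit. After correction Zfp536 was past the rule and Zfp488 was not. Hes5, a Notch target that restrains differentiation, was higher than in Sham in both Vehicle, 1.61-fold (1.16 to 2.26), and AGNHW, 1.98-fold (1.46 to 2.71). Its ratio of AGNHW to Vehicle was 1.23 (0.928 to 1.64). After correction Hes5 was past the rule only in AGNHW against Sham. Nkx2-2, which represses Pdgfra as precursors mature, had 4.52, 3.29 and 4.11 CPM in Sham, Vehicle and AGNHW, with a ratio of Vehicle to Sham of 0.728 (0.503 to 1.04), and was past the rule as lower only after correction. In AGNHW against Sham 1 regulator was higher and 3 were lower, or 1 and 0 after correction.

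Of 27 signals and receptors, 0 were higher and 8 lower in Vehicle than in Sham, where 14.2% of all genes were lower. In AGNHW against Vehicle 3 were higher and 0 lower, where 4.01% of all genes were higher. Pdgfa, the ligand of the Pdgfra receptor, had 33.4, 35.4 and 33.2 CPM with ratios of 1.06 (0.945 to 1.19) for Vehicle to Sham and 0.938 (0.834 to 1.06) for AGNHW to Vehicle. Fgf2, a second mitogen of precursors, was 2.07-fold higher in AGNHW than in Vehicle (1.35 to 3.25), the chemokine Cxcl12 1.59-fold higher (1.44 to 1.75) and Pdgfc 1.54-fold higher (1.12 to 2.14). All of these were also past the rule after correction, when the list had 4 higher members. Against Sham their ratios in AGNHW were 1.28 (0.904 to 1.82), 1.08 (0.990 to 1.17) and 1.0 (0.768 to 1.31). After correction Fgf2 was past the rule as higher in AGNHW than in Sham too, at a log2 ratio of 0.63. Its counts were low, at 62 in Sham, 31 in Vehicle and 77 in AGNHW. In Vehicle against Sham the neuregulin receptor Erbb4 was 1.76-fold lower (1.51 to 2.05) and the Notch ligand Jag1 1.66-fold lower (1.12 to 2.48). Neither Erbb4 nor Jag1 was past the rule after correction. The list then had 0 members higher and 3 lower in Vehicle than in Sham. Pdgfc was lower there both before correction (1.54-fold, 1.12 to 2.13) and after it. In AGNHW against Sham the list had 0 members higher and 1 lower, or 1 and 0 after correction. Igf1 and Erbb3 had ratios of AGNHW to Sham of 0.679 (0.512 to 0.897) and 0.711 (0.587 to 0.860). For Vehicle to Sham their ratios were 0.815 (0.615 to 1.08) and 0.667 (0.541 to 0.818), and Erbb3 was past the rule there.

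Mature myelin genes, which Myrf and Sox10 activate, had members on both sides. Of 20 such genes, 3 were higher and 4 lower in Vehicle than in Sham, 2 higher and 0 lower in AGNHW than in Vehicle, and 0 higher and 1 lower in AGNHW than in Sham. Mbp, a main protein of compact myelin, had 4000, 5751 and 5216 CPM in Sham, Vehicle and AGNHW. Its ratio to Sham was 1.44 (1.42 to 1.45) in Vehicle and 1.30 (1.29 to 1.32) in AGNHW. The ratio of AGNHW to Vehicle was 0.907 (0.899 to 0.915). Mbp was past the rule only after correction, as higher in Vehicle than in Sham, at a log2 ratio of 0.61. Ermn was 1.69-fold higher in AGNHW than in Vehicle (1.46 to 1.97) and Opalin 1.51-fold higher (1.30 to 1.75), and after correction neither passed. Ugt8a, an enzyme of myelin lipids, was 2.69-fold lower in Vehicle than in Sham (2.24 to 3.26) and 2.30-fold lower in AGNHW than in Sham (1.95 to 2.72). It was still past the rule in both after correction, at log2 ratios of -0.87 and -0.88.

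**Figure D4:**
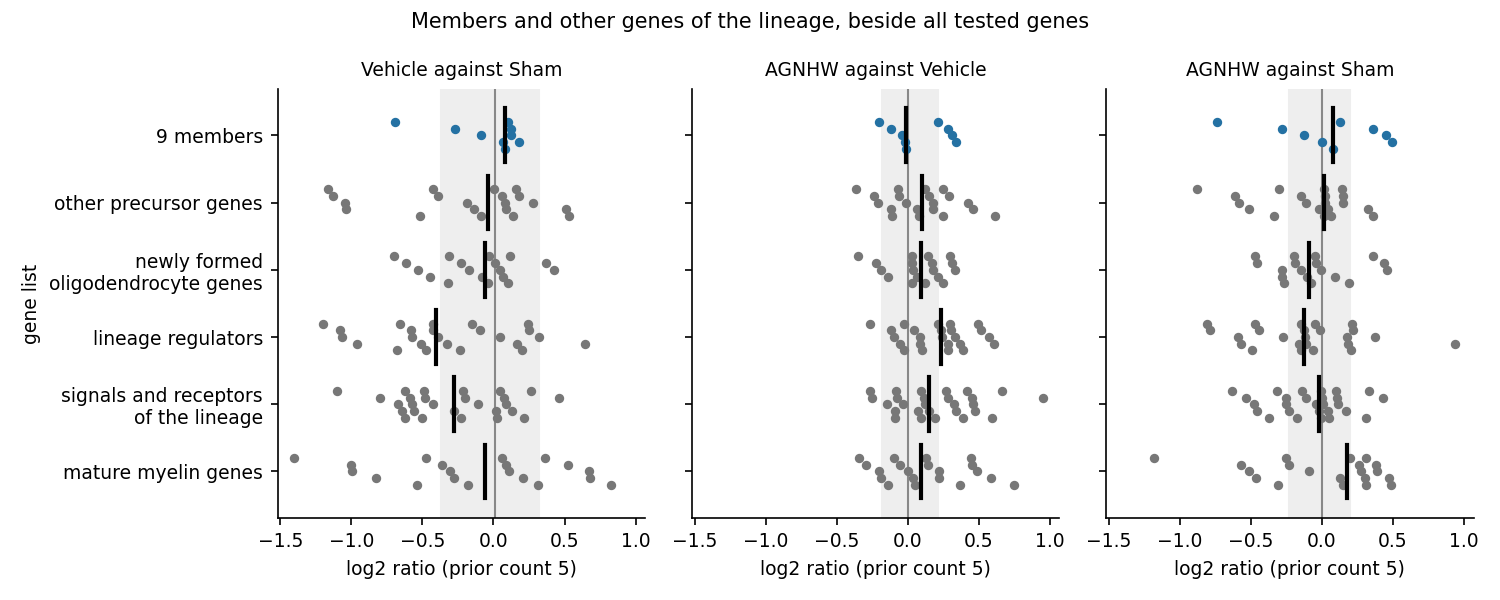
Log2 ratios (prior count of 5) of the 9 members and of the compared genes of 5 other lists, 1 point per gene, with black bars at the medians, the grey line at the median of all genes compared and the grey band between their quartiles. The members have medians of 0.08, -0.01 and 0.08, and the lineage regulators the lowest in Vehicle against Sham at -0.41.

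Genes of the cell cycle were sparse. Of 8 such genes 6 were counted, at 12.2 CPM in sum in Sham, 6.57 in Vehicle and 11.7 in AGNHW, and 5 could be compared. In Vehicle against Sham 0 were higher and 2 lower, where 14.2% of all genes were lower. In AGNHW against Vehicle 3 were higher and 0 lower, where 4.01% of all genes were higher. These genes do not tell which cells divided, and their relation to the members' levels was not tested.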

How the data were processed

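RNA of 3 mouse brain libraries, 1 per group, was described; groups came from the sample titles. The authors deposited raw read counts per gene symbol; Bowtie2 2.2.3, TopHat2 2.0.12, HTSeq 0.6.0 and build mm9 are named per the submitters' processing notes, which give no order or settings. No listed gene summed to less than 21 counts over the libraries, so a filter on low counts came before deposit.

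Counts were scaled with TMM (edgeR 4.0.16, R 4.3.3). Ratios have exact conditional binomial and levels exact Poisson intervals (95%), which cover counting error only; without molecular identifiers, reads are not independent molecules. The size rule was a ratio of at least 1.5, a mean CPM of at least 1 and an interval excluding 1. It was tested on simulated data with counting error only. That test could not show how the rule does with variation between animals or libraries, or with the length and GC trend. Log2 ratios used a prior count of 5. Length and GC came from the longest GENCODE M21 transcript, matched for 99.2% of the genes compared, in place of the RefSeq lengths first planned, and their trend was a least-squares fit with cubic terms. Promoter sequences are from RefSeq, GRCm38.p6. Named genes were all members, the 3 of each lineage list with the largest absolute log2 ratio per comparison, and Pdgfa, Nkx2-2, Tcf7l2, Lims2 and Mbp, except that some genes taken by this rule are not reported here; others (Ptprz1 in Vehicle against Sham and the markers of other cell types) were named after their values were seen. The members and lists were chosen with earlier results of these data known. Alternatives were plain CPM, DESeq2 1.42.0 size factors, upper-quartile factors, no low-count filter, a 2-fold limit, the trend correction and, added after seeing the data, scaling without the Vehicle library.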

Additional observations from a re-analysis of the deposited data

How the results depend on the processing

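The number of members lower than in Sham, 1 in Vehicle and 1 in AGNHW, became 0 in both with a 2-fold limit and 0 in both with the trend on length and GC removed; fewer genes can pass the first by its construction, and the second moved Enpp6 inside the limit. It did not change with plain CPM, DESeq2 or upper-quartile factors, without the low-count filter, or, for AGNHW against Sham, with scaling that left out the Vehicle library. The last could hardly change it, because TMM compares each library with 1 reference library. No count of members past the rule as higher, and no count in AGNHW against Vehicle, changed under these alternatives. Of 27 member ratios, 2 moved outside their counting interval with plain CPM (Olig1 and Bcas1, Vehicle against Sham) and 11 with the trend correction. With plain CPM the ratios of Vehicle to Sham of Olig2 and Gpr17 were 0.988 and 0.993, on the other side of 1. Over all genes, plain CPM gave 893 higher and 2829 lower in Vehicle than in Sham (24.0% higher, against 37.9%) and 805 and 311 in AGNHW than in Vehicle (72.1%, against 61.1%). The trend correction gave 793 and 1003 in Vehicle than in Sham, against 1348 and 2207. No paired analysis was possible because each group has 1 library, and for the same reason no library of a group could be left out. Depth limits Enpp6 most, with 62 to 127 counts.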
